A study of Mus musculus with 4 samples.

Results

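The expression of 10 collagen genes was followed in 4 RNA-seq libraries of C2C12, a line of mouse myoblasts that leave the cell cycle and form multinucleate myotubes in low serum. They were chosen by name and class, with earlier results of these data known, and are 10 of the 12880 genes that could be named in the files. The fibrillar class has 5 genes (Col1a1, Col1a2, Col3a1, Col5a1 and Col5a2), the basement membrane class has 2 (Col4a1 and Col4a2) and the type VI class has 3 (Col6a1, Col6a2 and Col6a3). The growth library came from exponentially dividing cells in high serum, labelled -24 h, and the others came from cells at 60 h, 120 h and 168 h after confluent plates were given low serum. Every library is labelled with the strain C57BL/6, no library carries a transgene or a drug according to the labels, and each time point has 1 library. There are therefore no replicates, no test and no p-value, and each difference below is between 2 libraries. All 10 genes were assembled at 60 h, 120 h and 168 h, and 9 in growth, where Col1a2 was not assembled.

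A collagen molecule is made of 3 chains that wind into a triple helix, in which each chain repeats a glycine and 2 other residues. Types I, III and V pack into banded fibrils, with type V at the core of fibrils of type I. Type IV forms the sheet-like network of basement membranes, the layer that surrounds each muscle fibre, and type VI forms beaded filaments between that layer and the fibrils. In muscle tissue fibroblasts are known as the main source of fibrillar and type VI collagen, and inherited defects of type VI chains cause muscular dystrophies.

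The 3 classes differ in the exons that encode the helix, which are shown because most gene assignments below rest on runs of exon and intron lengths. In the GENCODE annotation (release M21, build GRCm38), helix exons were taken as internal coding exons in which at least 30% of whole codons are GGN, the glycine codons. Exons of 54 bases, which hold 6 repeats of glycine and 2 other residues, were the commonest in each fibrillar gene, with 21 of 43 helix exons in Col1a1, 23 of 44 in Col1a2, 24 of 43 in Col3a1, 29 of 48 in Col5a1 and 24 of 43 in Col5a2. In the 3 type VI genes the commonest length was 63 bases, with 7 exons each of 18, 16 and 16. The basement membrane genes had no such standard length, with 2 of 34 helix exons of 54 bases in Col4a1 and 1 of 28 in Col4a2. This repeat, read in codons, ran without a break for 338 to 344 triplets in the fibrillar genes. The longest run was 87 triplets in Col6a1 and Col6a2 and 45 in Col6a3, and 40 in Col4a1 and 66 in Col4a2, so the type VI and basement membrane genes overlap in it. The first helix exon of the commonest length whose introns on both sides were assembled at 168 h is printed for a member of each kind, 5′ to 3′ on the coding strand, with the glycine codons in capitals.
Col1a1 exon 8, chr11:94939904-94939957, plus strand: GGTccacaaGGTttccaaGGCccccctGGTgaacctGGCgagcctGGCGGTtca
Col3a1 exon 6, chr1:45325360-45325413, plus strand: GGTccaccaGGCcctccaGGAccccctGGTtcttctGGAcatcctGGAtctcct
Col4a1 exon 4, chr8:11246863-11246907, minus strand: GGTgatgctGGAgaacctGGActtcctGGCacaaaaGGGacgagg
Col6a1 exon 15, chr10:76717795-76717857, minus strand: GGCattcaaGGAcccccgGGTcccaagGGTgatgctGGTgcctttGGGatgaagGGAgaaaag
Col6a2 exon 12, chr10:76610160-76610222, minus strand: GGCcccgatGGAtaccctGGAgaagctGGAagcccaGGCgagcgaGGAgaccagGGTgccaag
Col6a3 exon 18, chr1:90793014-90793076, minus strand: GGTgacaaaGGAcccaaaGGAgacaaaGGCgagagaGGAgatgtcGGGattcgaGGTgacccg
Each line starts on a glycine codon, so these exons begin in frame with the repeat. Despite the repeat, no word of 50 bases from 9 of the members was found in an annotated transcript of another gene. In Col3a1 1.67% of words were, in a microRNA gene annotated within it.

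Levels are in FPKM, the fragments assigned to a transcript relative to its length in kilobases and to the depth of the library. The sum over a gene's assembled transcripts is the main value. Beside it stands the value through the introns: each intron was given the summed FPKM of the transcripts that hold it, and the median of these was taken. A gene assembled in pieces is counted more than once by the sum and not by the introns. The figure after ± is the distance to the deposited confidence limit, which covers counting and not the variation between cultures. A gene is said to rise or fall where 2 libraries differ by at least 1 on the log2(FPKM + 1) scale, the higher has at least 1 FPKM and the intervals do not overlap. Libraries held between 24488681 (120 h) and 48228887 (60 h) fragments. Fragments assigned to the 10 collagen genes were 0.229% of the library in growth, 0.594% at 60 h, 0.785% at 120 h and 1.13% at 168 h. The collagen share was therefore higher at each later time, and the part of it from Col3a1 alone went from 32.6% in growth to 37.4%, 50.1% and 56.9%. Both shares count only what was assembled. Col3a1 was whole in each library, while Col1a2 was absent in growth and covered 871, 794 and 806 bases later. These are bulk cultures, in which fewer cells of a type and less RNA per cell cannot be told apart.

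**Figure D1:**
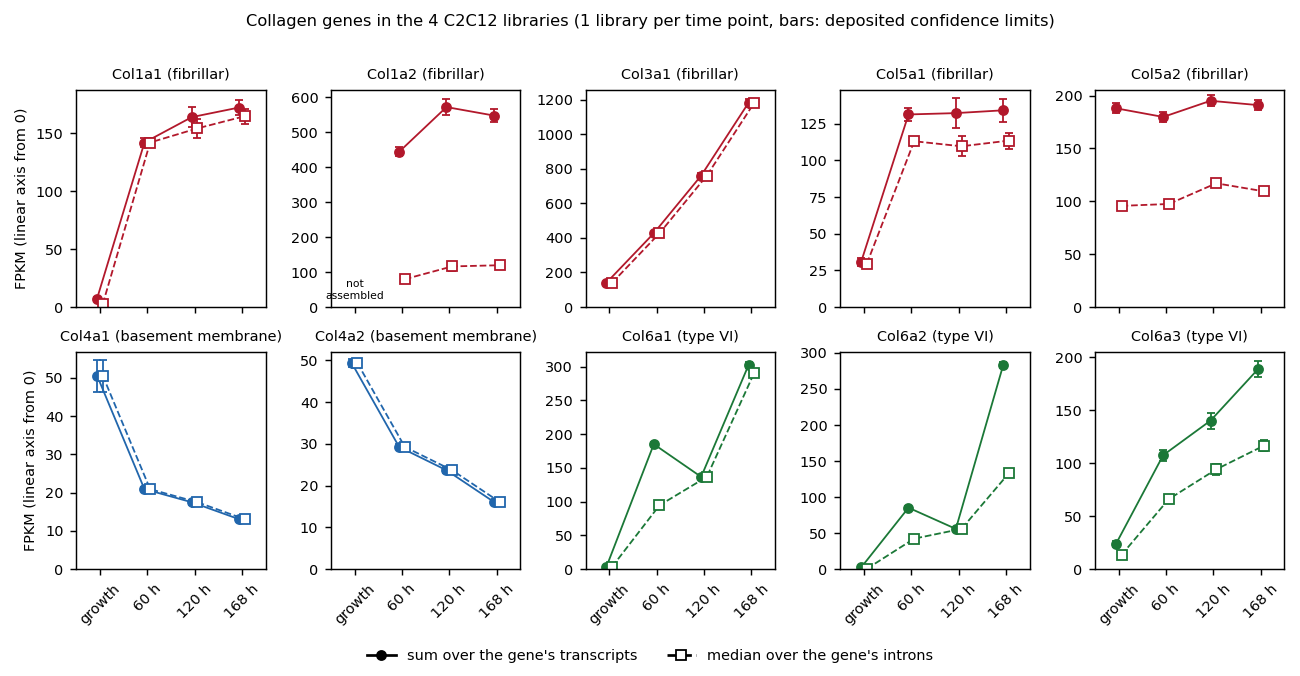
Expression of each collagen gene (FPKM, linear axes from 0 that differ between panels) in each of the 4 libraries. Filled circles are sums over transcripts, open squares are medians over introns and bars are the deposited limits. Col3a1 climbs through all libraries to 1182, Col4a1 and Col4a2 descend, and sums and introns lie apart in Col1a2, Col5a2 and Col6a3 wherever these were assembled, in Col6a1 at 60 h and in Col6a2 at 60 h and 168 h, among others.

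Col1a1 encodes the chain present as a pair in type I collagen. It lies on chromosome 11 between 94797541 and 94813932 as the files give it. Its sum was 7.37 ± 1.67 FPKM in growth, 142 ± 3.72 at 60 h, 164 ± 8.55 at 120 h and 172 ± 6.60 at 168 h. Through the introns it was 2.62 ± 0.434, 142 ± 3.72, 154 ± 8.23 and 165 ± 6.36 FPKM, with 22 of 50 introns assembled in growth and all 50 in each later library. Growth stood apart from the other libraries, which differed among themselves by 0.21 or less per step on the log2 scale. The difference between 60 h and growth was 4.09 on the log2(sum + 1) scale and 5.30 through the introns.

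Col1a2 encodes the other chain of type I collagen and was assembled only as short pieces. They carried 3 of 51 annotated introns at 60 h and 4 at each of 120 h and 168 h, and lay between 4469825 and 4488039 on chromosome 6. Pieces over introns 17, 36 and 48 have 2 exons each and hold no run of lengths. They were named by the length of their intron and its place between named introns. Every piece is stated in the files on the strand opposite to the annotated gene. Their sum was 444 ± 13.2 FPKM at 60 h, 572 ± 23.8 at 120 h and 548 ± 18.4 at 168 h, and the values through the introns were 79.8 ± 6.71, 116 ± 12.4 and 120 ± 9.55. Single introns ran from 75.5 to 289 FPKM at 60 h, so no one value stands for the gene. Of all named spliced transcripts 2.24% in growth, 2.74% at 60 h, 2.21% at 120 h and 2.35% at 168 h were stated on the opposite strand. The ratio of Col1a1 to Col1a2 was 0.319 at 60 h by the sums and 1.78 through the introns, and it is therefore not fixed by these files even in direction.

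Col3a1 encodes the single chain of type III collagen, and it lies on chromosome 1 between 45368320 and 45406379. It was assembled through all 50 introns in each library, and both measures gave the same value. Its level was 141 ± 1.93 FPKM in growth, 427 ± 9.66 at 60 h, 760 ± 15.7 at 120 h and 1182 ± 23.2 at 168 h, with no overlap of intervals at any step. Col3a1 had the highest level through the introns of all members in each library. By the sums Col5a2 in growth (188 FPKM) and Col1a2 at 60 h (444 FPKM), both assembled in pieces, stood higher. The difference on the log2(FPKM + 1) scale was 1.60 at 60 h against growth, 0.83 at 120 h against 60 h and 0.64 at 168 h against 120 h, of which only the first passed the size rule.

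Type V collagen chains behaved unlike each other. Col5a1 (chromosome 2, 27741844 to 27895037) had a sum of 30.8 ± 2.71 FPKM in growth, 131 ± 4.69 at 60 h, 132 ± 10.3 at 120 h and 134 ± 7.84 at 168 h, and 29.6, 113, 110 and 114 FPKM through its 65 introns. Col5a2 (chromosome 1, 45432262 to 45560206) had 188 ± 4.54, 180 ± 4.82, 195 ± 5.23 and 191 ± 4.48 FPKM, and 95.7, 97.5, 117 and 110 through its introns. Col5a1 was low in growth and level afterwards, and Col5a2 was close to level throughout. Col5a2 was assembled as 2 separate pieces, one with its first intron and one with introns 5 to 53, which the sum counts together. Through the introns the ratio of Col5a1 to Col5a2 was 0.309 in growth and 1.16, 0.937 and 1.04 at 60 h, 120 h and 168 h. Col3a1 and Col5a2 lie 25882 bases apart in the files, on opposite strands.

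The start regions of 2 fibrillar genes that rose at 60 h are shown because their base composition is unlike. Of the 10 members 8 had a promoter window in the RefSeq table (build GRCm38.p6), of which Col6a2 had 2, and Col1a1 and Col5a2 had none. Only the 250 bases before the start were used. Capitals mark the TATA box letters TATAAA, the CCAAT box and the GC box letters GGGCGG, sought on either strand and counted with overlaps.
Col3a1, chr1:45311288-45311537, plus strand: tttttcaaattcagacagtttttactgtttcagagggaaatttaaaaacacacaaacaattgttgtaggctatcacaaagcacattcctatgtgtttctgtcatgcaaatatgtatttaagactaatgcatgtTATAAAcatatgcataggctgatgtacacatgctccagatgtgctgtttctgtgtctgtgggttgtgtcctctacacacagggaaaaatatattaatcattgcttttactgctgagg
Col5a1, chr2:27886175-27886424, plus strand: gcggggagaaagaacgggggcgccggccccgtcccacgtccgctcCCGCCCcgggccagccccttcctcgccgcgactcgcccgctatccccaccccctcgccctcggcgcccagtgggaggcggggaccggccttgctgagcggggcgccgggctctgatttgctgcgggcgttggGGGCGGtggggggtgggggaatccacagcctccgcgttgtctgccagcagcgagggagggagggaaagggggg
G and C made up 35.2% of the Col3a1 window and 76.4% of the Col5a1 window, against a median of 52.4% over all windows. TATAAA was found in 1 of the 9 member windows (Col3a1) and in 12.4% of 32851 windows. GGGCGG was found in 5 of 9 and in 32.7% of all, and CCAAT in 3 of 9 and in 33.8%. CANNTG, the E-box letters that MyoD family factors bind, was found in 2 of 9 and in 66.2% of all. A match is a run of letters and not a site, and no binding was measured in these data.

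Both basement membrane genes went down. Col4a1 (chromosome 8, 11198455 to 11313120) had 50.6 ± 4.16 FPKM in growth, 20.9 ± 0.535 at 60 h, 17.5 ± 0.668 at 120 h and 13.1 ± 0.454 at 168 h. Col4a2 (chromosome 8, 11312498 to 11449297) had 49.3 ± 0.995, 29.3 ± 0.595, 23.7 ± 0.777 and 16.1 ± 0.466 FPKM. Each was assembled through all of its introns, 51 and 47, in every library, so the sum and the introns give the same value. Intervals of neighbouring times did not overlap for either gene. Col4a1 passed the size rule at 60 h, where it fell by 1.23 on the log2(FPKM + 1) scale, and Col4a2, which differed by -0.73, did not. At 168 h against growth both passed, with differences of -1.88 and -1.56. Their chains are joined in 1 trimer with Col4a1 as the pair, and the ratio of Col4a1 to Col4a2 was 1.03 (limits 0.923 to 1.13) in growth, 0.715 (0.683 to 0.749) at 60 h, 0.739 (0.688 to 0.793) at 120 h and 0.811 (0.761 to 0.864) at 168 h. The genes stand head to head, their RefSeq starts are 21 bases apart, and their assembled transcripts overlap by up to 623 bases in the files. At 120 h they do not overlap, since Col4a1 reaches 11312801 and Col4a2 begins at 11312862. The protocol does not describe marking of strand, so where they overlap, fragments of the shared stretch cannot be given to one gene.

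All type VI genes rose at 60 h. Col6a1 (chromosome 10, 76171537 to 76188930), the alpha 1 chain, had 3.55 ± 0.456 FPKM through its introns in growth, 94.6 ± 1.55 at 60 h, 137 ± 2.62 at 120 h and 291 ± 3.01 at 168 h. Col6a2 (chromosome 10, 76058370 to 76086160), the alpha 2 chain, had 0.513 ± 0.387, 42.3 ± 1.17, 55.9 ± 1.85 and 133 ± 2.50. Col6a3 (chromosome 1, 92664897 to 92740669), the large alpha 3 chain, had 13.5 ± 1.84, 66.2 ± 3.85, 94.2 ± 5.51 and 116 ± 5.30. Through the introns the 3 genes were thus higher at each later time, with no overlap of neighbouring intervals. In growth 14 of 34 introns of Col6a1 and 3 of 27 of Col6a2 were assembled, and the fragments behind these values are few. The sums of Col6a1 (185 FPKM at 60 h, 137 at 120 h) and Col6a2 (85.3 and 55.9) went the other way between 60 h and 120 h, since at 60 h each was assembled as 2 pieces and at 120 h as 1. Neither difference passed the size rule by either measure. At 168 h Col6a2 was again in separate pieces, and its sum was 283 ± 4.30 FPKM against 302 ± 4.77 for Col6a1.

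The 3 chains of type VI collagen join in equal numbers, and their levels per length were compared within each library. Through the introns the ratio of Col6a1 to Col6a2 was 2.24 at 60 h, 2.45 at 120 h and 2.18 at 168 h. In growth it was 6.92, with limits of 3.44 and 32.0. The ratio of Col6a1 to Col6a3 through the introns was 0.263 in growth, 1.43 at 60 h, 1.45 at 120 h and 2.50 at 168 h. By this measure Col6a3 was the highest type VI gene in growth and lower than Col6a1 later. From the sums this ratio was 0.151, 1.72, 0.975 (limits 0.907 to 1.05) and 1.60, so at 120 h neither gene stood higher. By the sums, Col6a1 over Col6a2 was 1.54, 2.17, 2.45 and 1.07, and of these only the 120 h value counts no gene in pieces. Part of the Col6a3 sum, 25.5% in growth and 38.5%, 32.8% and 38.3% later, came from a piece of 2 exons over intron 39 of 40 that is stated on the opposite strand. Col6a1 and Col6a2 are neighbours, 85376 bases apart on the same strand.

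**Figure D2:**
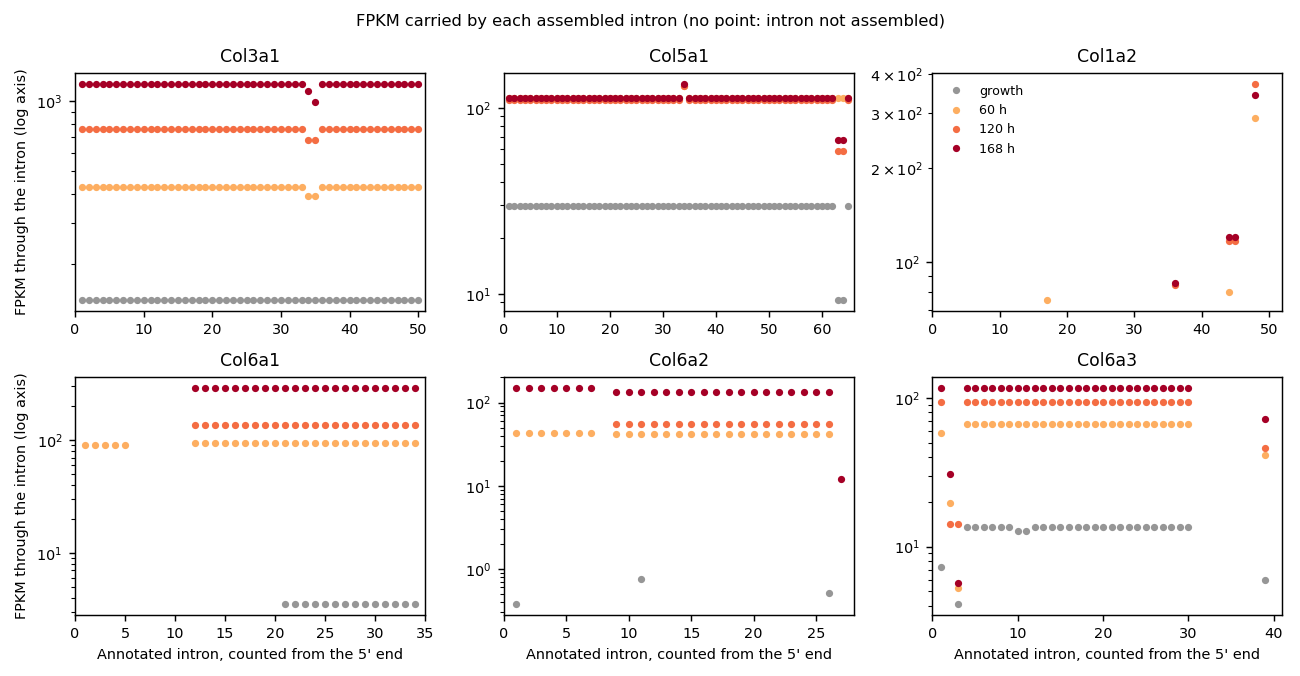
FPKM carried by each assembled intron (vertical log axes that differ between panels) against the annotated intron counted from the 5′ end, for 6 collagen genes, with 1 colour per library and no point where an intron was not assembled. Col3a1 and Col5a1 are level over nearly all introns, and Col1a2 has 3 or 4 points in each library after growth. Col6a1 breaks after intron 5 at 60 h, and Col6a2 after intron 7 at 60 h and 168 h. Introns 1 to 11 of Col6a1 have no points at 120 h and 168 h.

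At 60 h against growth 7 of the 10 members rose and 1 fell. Cell density, serum and time all differ between these libraries and cannot be told apart. Of 12559 genes assembled in either library 11.1% rose and 15.4% fell. Those that rose were 4 fibrillar genes (Col1a1, Col1a2, Col3a1 and Col5a1) and the 3 type VI genes, and the one that fell was Col4a1. The same 8 genes passed through the introns, where 8.16% of all genes rose by both measures and 9.2% fell. For Col1a2 this holds by construction, since it has no value in growth, and no fold is given for it. Both measures come from the same transcripts, and for Col3a1 and Col4a1 they are the same value. Passing through the introns is therefore no separate support. Leaving out transcripts on the opposite strand removes Col1a2 and leaves 6 that rose. The median difference was 1.83 on the log2(sum + 1) scale for the 4 fibrillar genes with a value in both libraries, -0.98 for the 2 basement membrane genes and 4.70 for the 3 type VI genes, against -0.18 for all genes. Scaled by the median ratio over genes assembled in every library, the median of all genes was 0.02, with 1731 genes that rose and 1365 that fell in place of 1395 and 1935, and the members called were again 7 and 1.

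At 120 h against 60 h no member rose or fell, by the sum or through the introns, where 12.3% of 12561 genes rose and 3.8% fell by the sum, and 2.9% and 2.22% by both measures. At 168 h against 120 h 2 members rose, where 4.13% of 12484 genes rose and 9.96% fell by the sum, and 2.44% and 2.73% by both measures. They were Col6a1, with differences of 1.14 by the sum and 1.08 through the introns, and Col6a2, with 2.32 and 1.24. Col6a3 differed by 0.43 and 0.30 and was not called. Over the whole course, at 168 h against growth, 7 members rose and 2 fell, where 15.5% of 12556 genes rose and 18.6% fell by the sum, and 12.3% and 14.3% by both measures. The 7 were those of the first step, and the 2 were both basement membrane genes. With median-ratio scaling 1149 of all genes rose and 624 fell at 120 h in place of 1543 and 477, 647 rose and 982 fell from 120 h to 168 h in place of 516 and 1244, and the member counts were as above. With equal totals the 120 h counts were 1107 and 637. These comparisons share libraries, so they do not support each other.

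The order of the members changed most between growth and 60 h. Through the introns the order in growth was Col3a1, Col5a2, Col4a1, Col4a2, Col5a1, Col6a3, Col6a1, Col1a1 and Col6a2, with overlapping limits only between Col4a1 and Col4a2. At 60 h Col1a1 stood second and the 2 basement membrane genes stood last, and only Col5a2 and Col6a1 overlapped. At 120 h Col5a2, Col1a2 and Col5a1 overlapped in turn behind Col3a1, Col1a1 and Col6a1. At 168 h Col6a1 stood second and Col6a2 behind Col1a1, and Col1a2, Col6a3, Col5a1 and Col5a2 overlapped in turn between 120 and 110 FPKM. Col4a2 and Col4a1 remained last at 120 h and 168 h.

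By the sums the basement membrane class made up 20.1% of the 10 genes' FPKM in growth, 2.86% at 60 h, 1.87% at 120 h and 0.963% at 168 h. The type VI class made up 5.93% in growth, 21.6% at 60 h, 15.1% at 120 h and 25.5% at 168 h. Through the introns that class had 4.54%, 18.3%, 18.1% and 23.9%, so the dip at 120 h is seen in the sums alone. The fibrillar class had 73.9%, 75.6%, 83.0% and 73.5% by the sums and 69.6%, 77.2%, 79.3% and 74.8% through the introns. Between growth and 60 h the basement membrane and type VI shares thus moved in opposite directions, each by more than the fibrillar share. The level of the basement membrane class itself went from 99.9 ± 4.28 FPKM in growth to 29.2 ± 0.651 at 168 h, and that of all 10 genes by sums from 496 to 3030.

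**Figure D3:**
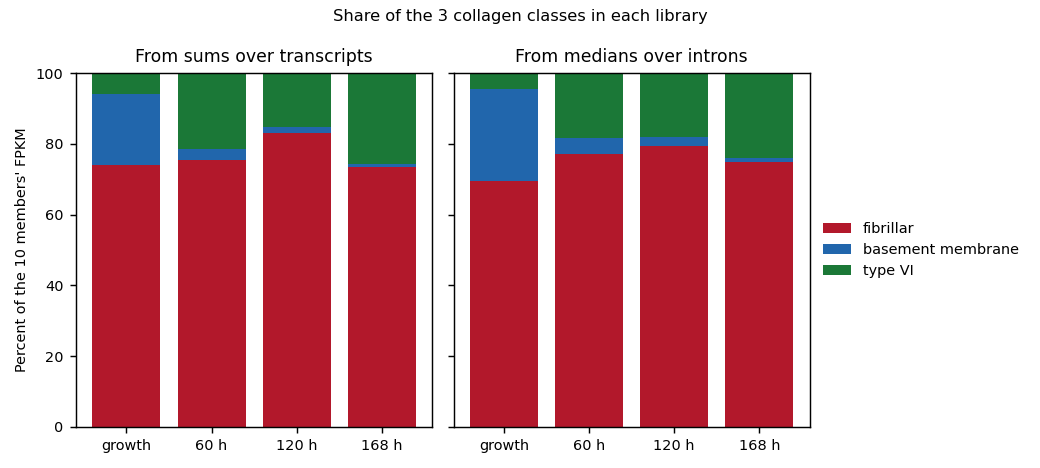
Percent of the 10 collagen genes' summed FPKM (vertical axis, 0 to 100) held by the fibrillar, basement membrane and type VI classes in each of the 4 libraries, from sums over transcripts (left) and medians over introns (right). The basement membrane part shrinks from 20.1% in growth to 0.963% at 168 h by the sums.

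In 3 members, Col5a1, Col6a3 and Col3a1, the assembled transcripts differed in whole internal exons between libraries. Near its 3′ end Col5a1 uses either of 2 exons of 69 bases, at 27884487 to 27884555 and 27884617 to 27884685 on chromosome 2 in the files, each read by different transcripts. The upstream exon was in 31.4% of the FPKM across that position in growth (limits 25.4% and 37.5%), 100% at 60 h, 53.2% at 120 h (48.8% and 57.6%) and 59.5% at 168 h (56.1% and 62.9%). The downstream exon was in the remainder, and at 60 h no assembled transcript held it. Only a single transcript was assembled across that position at 60 h, so the 100% has no spread. Whether the other form was missing from the cells or only from the assembly was not tested. Only the upstream exon matches the annotated coding transcript with the most exons, by the lengths of its introns, 3261 and 3555 bases. Other annotated transcripts of the gene were not searched for the downstream exon.

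Col6a3 has 4 exons of 618, 603, 585 and 600 bases, from 5′ to 3′, that were included or skipped as whole exons. Transcripts that skip all 4 were not assembled in growth and held 40.6% of the FPKM across them at 60 h, 46.6% at 120 h and 42.3% at 168 h. The exon of 585 bases was in 100% in growth and in 59.4%, 53.4% and 57.7% later. The exon of 603 bases was in 100% in growth and in 29.8%, 38.4% and 31.5% later. In growth the forms that span these 2 exons held 9.34 FPKM, and none skipped them. Forms without them were present at every later time. The exon of 600 bases was in 69.3% in growth and in 51.5%, 38.4% and 52.8% later. Some growth forms thus skipped that exon. The exon of 618 bases was in 16.6% at 120 h and 14.8% at 168 h of transcripts that span it. In growth and at 60 h it was seen only in transcripts that start within it.

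**Figure D4:**
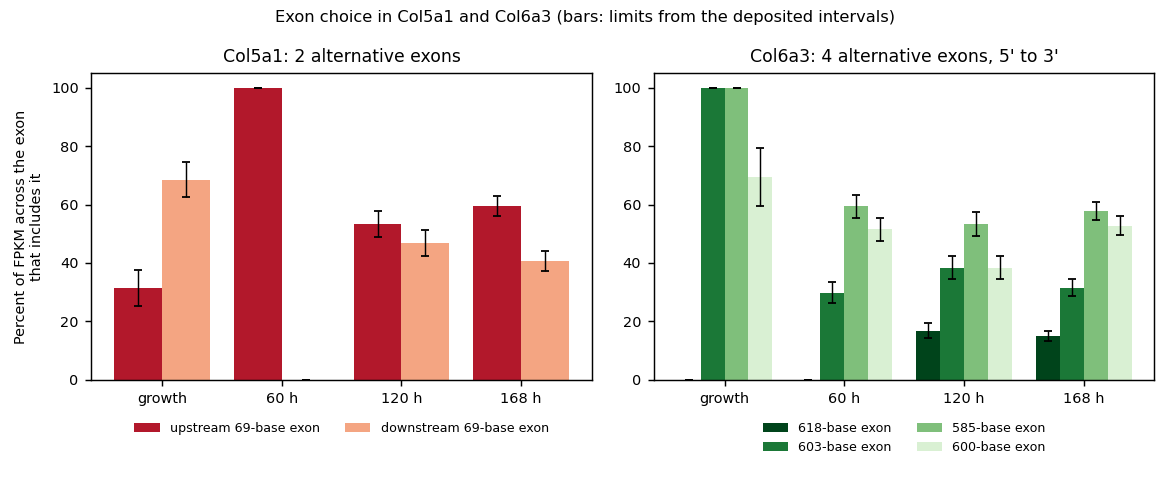
Percent of the FPKM across an exon that includes it (vertical axis) in each library, for the 2 alternative exons of Col5a1 (left) and 4 exons of Col6a3 (right), with limits from the deposited intervals. At 60 h only the upstream Col5a1 exon is seen, in the single transcript assembled across that position. The Col6a3 exons of 603 and 585 bases are at 100% in growth alone.

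In Col3a1 a helix exon of 54 bases, at 45396204 to 45396257 on chromosome 1 in the files, was skipped in 8.64% of the FPKM at 60 h, 10.9% at 120 h and 6.56% at 168 h. No growth transcript skipped it. In the same transcripts the exon before it was read with 46 bases in place of 54. The exon after it, of 108 bases, was read with 71 bases in 8.64%, 10.9% and 16.1% at 60 h, 120 h and 168 h and in none of the growth transcripts.

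Smaller differences of structure were seen in other members. At 168 h 9.15% of the Col6a2 FPKM at the 3′ end used a last exon behind an intron of 3435 bases, and the remainder one behind an intron of 6517 bases, which was the only form at 60 h and 120 h. In Col1a1 16.8%, 13.6% and 14.2% of the FPKM at 60 h, 120 h and 168 h had exons of 47 and 61 bases in place of 54 and 54, with the intron between them shifted and of unchanged length. In the annotation 42 of 43 helix exons in each of Col1a1 and Col3a1 have a length that is a multiple of 9, and 47, 61, 46 and 71 are not. Whether such forms arise in the cells or in assembly was not tested.

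For each class the 5 protein-coding genes with the most similar course over the 4 libraries were found, by the distance between centred log2(sum + 1) profiles. Of 7320 candidates the nearest to the mean of the 4 fibrillar genes with values in all libraries was Fn1, the fibronectin gene, at a distance of 0.0790. Its levels were 215, 785, 925 and 1080 FPKM. Mapre3, Tmbim1, Calcoco1 and Capn3 came next, at 0.129 to 0.159. Nearest to the mean of the basement membrane genes were Dpy30 (0.0343), Ssrp1, Coq7, Cpsf4 and Ncbp2, which lie outside the matrix. Among the nearest to the type VI genes were Pygm, the muscle glycogen phosphorylase gene, at 0.731, Try5, Lmod2 and Gadd45a (up to 0.775). With 4 points a profile holds little, and these distances are a description.

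Of the other 34 annotated collagen genes 22 were assembled at 60 h or in growth, and 9 rose and 1 fell, with 5 and 1 by both measures. Over all genes at this step 11.1% rose and 15.4% fell by the sum, and 8.16% and 9.2% by both measures. The median difference of these other collagen genes was 0.02 on the log2(sum + 1) scale over 11 genes with values in both libraries, against -0.18 for all genes, and 0.51 through the introns, against -0.09. Col18a1, a basement membrane collagen that gives rise to endostatin, had 120 ± 1.83 FPKM in growth, 277 ± 11.4 at 60 h, 198 ± 2.52 at 120 h and 173 ± 1.70 at 168 h. It rose at 60 h, when Col4a1 fell. Col5a3, which encodes a further chain of type V, had 15.3 ± 3.84, 45.1 ± 4.22, 37.0 ± 2.75 and 26.2 ± 1.41 FPKM and rose at 60 h. The membrane collagens Col23a1 (2.42 to 9.88 FPKM) and Col25a1 (0.265 to 6.91) rose as well. Col14a1, Col15a1 and Col24a1 were missing from the growth assembly and had 5.40, 1.27 and 3.27 FPKM at 60 h, and they passed the rule by the sum and not through the introns. Col4a5, of another type IV trimer, differed by -0.87 by the sum and did not pass. Through the introns it was higher at 60 h, with 6.89 FPKM against 4.29 in growth, so its direction depends on the measure.

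Among 35 genes that modify, escort or process procollagen, 32 were assembled, and 6 rose and 4 fell at 60 h by both measures, beside 8.16% and 9.2% of all genes. Subunits of prolyl 4-hydroxylase, which makes the hydroxyproline that keeps the helix stable, moved in both directions. P4ha1 rose from 26.4 ± 2.75 to 93.3 ± 6.93 FPKM and P4ha2 from 20.3 ± 2.65 to 58.1 ± 3.45, and P4ha3 fell from 11.5 ± 1.76 to 2.21 ± 0.426. The procollagen N-proteinases Adamts2 (6.47 to 24.8 FPKM) and Adamts14 (7.52 to 23.4) rose, and Adamts2 reached 49.3 at 120 h and 77.1 at 168 h. Tmem38b, a channel of the endoplasmic reticulum, rose from 8.41 to 44.7 FPKM, and Loxl1, a cross-linking oxidase, from 5.32 to 26.2. Pcolce2, an enhancer of C-propeptide removal, fell from 68.0 to 16.0 FPKM and was at 4.17 at 168 h. The median difference of the list was -0.19 by the sum and 0.12 through the introns, against -0.18 and -0.09 for all genes, so its sign depends on the measure. Serpinh1, which encodes the collagen chaperone HSP47, was added to the named genes after its values were seen. It had 860, 972, 850 and 916 FPKM and was not called.

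Of 23 genes for collagen receptors and collagen-binding proteins 21 were assembled, and 5 rose and 2 fell at 60 h, 3 and 1 by both measures. The shares over all genes were 11.1% and 15.4%, and 8.16% and 9.2% by both. Fn1 and Sparc rose, the latter a collagen-binding glycoprotein gene with 578 ± 31.4 FPKM in growth and 1581 ± 49.4, 1652 ± 74.1 and 1706 ± 52.5 later. Dcn, which encodes the fibril-binding proteoglycan decorin, had no assembled transcript in growth, and its later levels were 9.04 ± 0.649, 27.1 ± 1.57 and 57.7 ± 3.48 FPKM, a rise at every step. Hspg2, the perlecan gene, rose by the sum from 53.4 to 113 FPKM. Thbs1 fell from 117 to 50.5 FPKM at 60 h and rose to 118 at 120 h. Of the nidogens, which link laminin to type IV collagen, Nid1 fell by the sum from 197 to 97.5 FPKM, and Nid2 had 18.1 and 32.9 and was not called. Itga11, which encodes an integrin that binds collagen, was not assembled in growth. Its sum at 60 h was 5.70 FPKM, with 0.718 through the introns.

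Of 14 genes of collagen breakdown 11 were assembled, and 2 rose and 2 fell at 60 h, 2 and 1 by both measures, where 11.1% and 15.4% of all genes did by the sum and 8.16% and 9.2% by both. With 11 genes the falls are near those shares. The gelatinase gene Mmp2 had 12.4 ± 0.756 FPKM in growth and 48.6 ± 1.15, 73.7 ± 1.98 and 164 ± 2.16 later, higher at each time. Mmp15, a membrane metalloproteinase gene, rose from 5.47 to 29.7 FPKM. Mmp9 fell by the sum from 12.3 ± 3.75 to 0.883 ± 0.166 and not through the introns, and the inhibitor gene Timp3 fell from 49.5 to 13.9. Mmp14, Timp1, Timp2 and Ctsl were not called at 60 h. From 120 h to 168 h Mmp2 rose by both measures, the step at which Col6a1 and Col6a2 rose.

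**Figure D5:**
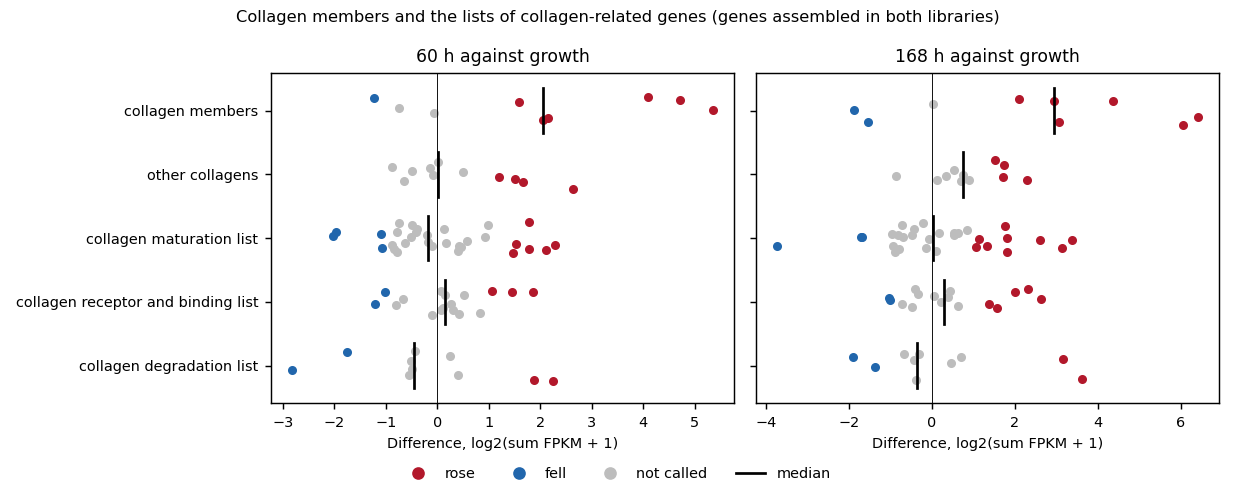
Difference on the log2(sum FPKM + 1) scale (horizontal axis) at 60 h and 168 h against growth for the collagen genes and 4 lists of related genes, with 1 point per gene assembled in both libraries, red for rose, blue for fell, and a line at the median. The collagen genes have a median of 2.06 at 60 h, and the lists lie between -0.46 and 0.15.

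The label of the culture was checked against marker genes. All 7 skeletal muscle markers were assembled in every library, with a summed level of 704 FPKM in growth and 8562, 12171 and 11667 later. Acta1 alone had 5150, 7931 and 7219 FPKM of the later sums. Myog, Des, Ckm, Acta1 and Myh3 were each higher than in growth at every later time. Myod1 had 193, 215, 134 and 86.1 FPKM, and Myf5 had 13.6, 9.41, 12.6 and 13.4. Of 8 fibroblast and tenocyte markers 5 were assembled in each library, with sums of 164, 236, 378 and 323 FPKM. Ly6a had 80.8, 152, 273 and 267 of these, and Thy1, Tcf21 and Tnmd were not assembled in any library. The Pdgfra level was 6.39 FPKM in growth and 2.56, 4.82 and 2.93 later, and Scx had 53.5, 52.8, 74.0 and 29.2. Of 7 osteoblast and chondrocyte markers 3 were assembled, with sums of 35.7, 17.1, 45.3 and 28.8 FPKM, and Bglap, Ibsp, Alpl and Acan were not. Of 5 smooth muscle markers 4 were assembled, with sums from 2469 FPKM in growth to 537 at 168 h, and Myh11 was not. Tagln and Cnn1 were lower at each later time, and Acta2 had 1695, 1729, 803 and 442 FPKM. Smtn was higher than in growth at each later time, with 30.7, 110, 125 and 83.4 FPKM. Summed endothelial markers were at most 1.20 FPKM, macrophage markers at most 4.83 and adipocyte markers at most 20.7. The part of other cell types in the collagen levels was not tested.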

How the data were processed

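Per the labels' protocols, cDNA was made with random hexamers from heat-fragmented polyadenylated RNA and read from both ends, in 1 library per time point. The authors deposited assembled transcripts with an RPKM and confidence limits in the attribute text of each line. TopHat 1.0.13 and Cufflinks 0.8.0 are named in the submitters' processing notes, and a genome build was not given in the sources used here. The values count fragments and are called FPKM. In genes with 1 transcript a limit is 2 square roots of the fragment count away from the value, which gave library sizes of 28513977, 48228887, 24488681 and 43845262 fragments in time order, of which 86.9%, 88.8%, 88.5% and 89.7% were in assembled transcripts.

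Introns were named from GENCODE M21 by runs of intron, exon and intron lengths (121761 of 137519) or by their own length between named introns (6975), so no coordinate of one build was used with the other. Single-exon transcripts were counted to a gene when at least 50% lay in its assembled exons. Limits were added in quadrature, and genes not assembled entered the size rule as 0. The lists were named genes of the other collagens, maturation, receptors and binding, and degradation, and at most 8 per list are named, by the largest difference at 60 h among genes with at least 5 FPKM in any library. Likeness was sought among protein-coding genes that reach 10 FPKM in a library, and 1 of the genes it takes is not reported here. The members and lists were chosen with earlier results of these data known. Alternatives were a pseudocount of 0.1, no minimum or 5 FPKM, a 4-fold rule, 2 scalings, medians over introns, the union of exons and spliced transcripts alone. Leaving out opposite-strand transcripts, using only introns assembled in both libraries, and class shares without Col1a2 were chosen after seeing the data. The size rule was run on simulated counts with 4-fold changes and no variation between cultures. The naming was run on annotated transcripts moved along a chromosome. These runs check the code and do not measure the error of the rules in these libraries. Python 3.11.15, numpy 2.4.6 and matplotlib 3.10.9 were used.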

Additional observations from a re-analysis of the deposited data

How the results depend on the processing

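No called difference of a member changed sign under any alternative that was run. Under the 4-fold rule, applied to the sums, 6 members rose (Col3a1 lost the call) and 0 fell at 60 h against growth. At 168 h against growth 0 fell, and at 168 h against 120 h 1 rose (Col6a2). Col6a2 passed with a difference of 2.32 by the sum, which counts a piece over introns 1 to 7 assembled at 168 h and not at 120 h. Through the introns its difference was 1.24, below that rule. Without opposite-strand transcripts Col1a2 has no value, so its calls at 60 h and 168 h against growth end and 6 members rose in each. The fibrillar share in growth was 69.6% by introns and 69.9% by the exon union. At 168 h it was 74.8% by introns, 76.8% by the exon union, 69.3% without opposite-strand transcripts and 67.6% without Col1a2. Of the differences of single members with a value in both libraries 411 stayed on their side of the rule under an alternative and 5 lost the call, all 5 under the 4-fold rule. Ratios of chains moved beyond their limits in 36 of 89 recomputations and class shares in 44 of 60, and the cause was not tested. No paired analysis was possible because each time point has 1 library, and for the same reason no replicate could be left out. The growth values of Col6a2, Col1a1 and Col6a1 rest on 19, 203 and 242 fragments, the fewest of any member and library, and the 120 h library is the shallowest.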

Other observations

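Some genes around collagen lie outside the naming rule, and they were chosen after their values were seen. Thbs2, which encodes a matrix glycoprotein known to affect collagen fibril assembly, had 14.4 ± 1.49 FPKM in growth and 13.2 ± 0.469, 34.6 ± 1.07 and 93.7 ± 1.31 at 60 h, 120 h and 168 h, and it rose at both late steps by both measures. Col12a1, a collagen found on the surface of fibrils, had 8.84 ± 1.48, 8.29 ± 1.21, 18.5 ± 2.10 and 27.3 ± 2.70 FPKM and rose at 168 h against growth by both measures. The lysyl hydroxylase gene Plod1 (42.8, 56.8, 70.9 and 89.8 FPKM) and the prolyl 3-hydroxylase gene P3h1 (19.5, 27.0, 31.2 and 44.0) rose only over the whole course. Mrc2, an uptake receptor for collagen, had 21.5 ± 3.84 FPKM in growth and 57.2 ± 7.36 at 168 h and rose over that span. The anthrax toxin receptor genes Antxr1 and Antxr2, whose proteins bind collagens, fell over it, from 10.1 to 4.53 and from 37.0 to 17.5 FPKM.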
